A study of Homo sapiens with 6 samples.

Results

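The genes described are 10 regulators of the cell division cycle: the cyclins CCND2, CCND3, CCNE1, CCNE2, CCNA2 and CCNB1, the cyclin-dependent kinases CDK4 and CDK6, and the kinase inhibitors CDKN1A and CDKN2A. They are 10 of 20176 protein-coding genes in the annotation. For each gene, all ATAC-seq peaks that touch the gene body or the 20 kb to each side of it were collected. A peak within 3 kb of a transcription start site of the gene was called a promoter peak, and the others were called distal. Chromatin accessibility was measured in HET-1A, a non-cancerous esophageal epithelial line, and in KYSE-30 and KYSE-150, which come from esophageal squamous cell carcinoma (ESCC). Each line had 2 libraries, which are named by the numbers in the sample labels: libraries 1 and 2 for HET-1A, 4 and 6 for KYSE-30, and 7 and 8 for KYSE-150. Each number belongs to one line, so that library 2 always means HET-1A and library 6 always means KYSE-30. No line was treated. HET-1A was cultured in BEBM medium and the KYSE lines in RPMI/F12 with serum, so that line and medium cannot be told apart. Each group is 1 cell line, and HET-1A is a line immortalised with the SV40 large T antigen, a viral protein that binds RB1.

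Progress through the cell cycle depends on kinases that are active only when a cyclin is bound. D-type cyclins with CDK4 or CDK6 phosphorylate the retinoblastoma protein RB1 and release E2F factors, cyclin E with CDK2 then carries the cell into DNA replication, and cyclins A and B act later, in S phase, G2 and mitosis. CDKN1A (p21) inhibits cyclin-CDK complexes, and the CDKN2A locus encodes p16, which inhibits CDK4 and CDK6. Amplification of the cyclin D gene CCND1 and loss of CDKN2A are common in ESCC.

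The peak lists held 168 to 15979 peaks per library, and this range governs what can be seen at a single gene. Because MACS2 derives the p-value of a peak from a Poisson distribution, the summit tag count and the local background level were recovered for 99.6 to 100% of all listed peaks. The genome background, taken as the smallest local background in a list, lay between 1.49 tags per 200 bp in library 6 and 3.34 in library 2. At the genome background, the lowest fold enrichment that was called was 2.99 in library 2, 3.62 in library 6 and between 3.68 and 3.85 in the other 4 libraries. The lists do not give the number of reads per library. The genome background was 1.88 tags per 200 bp in library 1, 2.36 in library 4, 2.8 in library 7 and 2.64 in library 8. These shorter lists thus had a higher genome background than the long list of library 6. What made them short was not tested. No test between lines was run, since 2 libraries against 2 allow no exact two-sided permutation p-value below 0.33. Values are therefore given per library, and the labels do not state whether the libraries of a line came from separate cultures. Of 9 squamous and epithelial marker genes, 5 had a promoter peak in library 2 (KRT6A, SFN, EPCAM, KRT8 and KRT18), 2 in library 6 (EPCAM and KRT8), and none in the other 4 libraries. KRT8 and KRT18 had the same fold enrichment in library 2, 5.33, so that the same peak may be counted for both. TP63, KRT5, KRT14 and CDH1 had no promoter peak in any library, so the peak lists do not show their promoters as accessible. The same held for 53.7% of all protein-coding genes, and distal peaks of the marker genes were not counted. None of 3 blood cell genes had a promoter peak, and of the mesenchymal genes VIM had 1 in KYSE-30 library 6.

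The sequences below are promoters of 5 of the 6 genes with a promoter peak, then distal regions with peaks in more than 1 library and the distal peak of highest fold enrichment, taken from the hg19 genome and written 5′ to 3′ on the strand of the named cyclin, kinase or inhibitor gene. Capitals mark matches to short motifs, searched on both strands: the CCAAT box (CCAAT), the CHR element of cell cycle promoters (TTTGAA or TTTAAA), the E2F motif (TTTGGCGC, TTTCCCGC, TTTCGCGC or TTTGCCGC), and the AP-1 core (TGAGTCA or TGACTCA, which are each other on the opposite strand). No match of one kind overlapped a match of another in these sequences. The promoter windows span 200 bp, from chr5:68462761-68462960 on the forward strand for CCNB1, chr12:58146074-58146273 on the reverse strand for CDK4, chr4:122745071-122745270 on the reverse strand for CCNA2, chr6:41909483-41909682 on the reverse strand for CCND3, and chr6:36646371-36646570 on the forward strand for CDKN1A.
CCNB1 promoter: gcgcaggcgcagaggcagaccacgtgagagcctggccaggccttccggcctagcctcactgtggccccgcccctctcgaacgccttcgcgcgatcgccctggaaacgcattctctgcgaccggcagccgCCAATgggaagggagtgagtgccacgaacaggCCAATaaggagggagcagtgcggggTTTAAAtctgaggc
CDK4 promoter: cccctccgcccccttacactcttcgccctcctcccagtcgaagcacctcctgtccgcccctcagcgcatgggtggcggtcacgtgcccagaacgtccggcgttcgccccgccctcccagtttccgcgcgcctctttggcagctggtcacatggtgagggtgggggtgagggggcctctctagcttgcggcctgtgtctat
CCNA2 promoter: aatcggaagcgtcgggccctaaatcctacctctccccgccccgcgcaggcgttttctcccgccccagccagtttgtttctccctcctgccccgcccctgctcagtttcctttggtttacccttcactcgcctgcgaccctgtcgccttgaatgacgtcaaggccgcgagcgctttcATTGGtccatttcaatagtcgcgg
CCND3 promoter: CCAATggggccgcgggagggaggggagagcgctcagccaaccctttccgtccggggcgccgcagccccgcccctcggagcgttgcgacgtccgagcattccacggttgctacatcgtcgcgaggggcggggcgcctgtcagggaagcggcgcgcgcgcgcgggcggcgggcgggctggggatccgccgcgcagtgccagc
CDKN1A promoter: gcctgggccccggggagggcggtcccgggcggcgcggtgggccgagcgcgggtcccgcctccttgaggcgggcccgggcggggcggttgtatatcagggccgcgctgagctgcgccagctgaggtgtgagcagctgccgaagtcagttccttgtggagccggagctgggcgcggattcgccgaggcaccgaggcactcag

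Both windows in introns of CDK6 carried peaks of KYSE-30. The first, chr7:92393044-92393278 on the reverse strand, is the only distal region of the 10 genes with a peak in both KYSE-30 libraries, and the second, chr7:92370174-92370373 on the reverse strand, surrounds the distal peak with the highest fold enrichment. Each holds an AP-1 core. In the first window the core lies inside the peak of KYSE-30 library 4 but outside that of KYSE-30 library 6.
CDK6 intron, both KYSE-30 libraries: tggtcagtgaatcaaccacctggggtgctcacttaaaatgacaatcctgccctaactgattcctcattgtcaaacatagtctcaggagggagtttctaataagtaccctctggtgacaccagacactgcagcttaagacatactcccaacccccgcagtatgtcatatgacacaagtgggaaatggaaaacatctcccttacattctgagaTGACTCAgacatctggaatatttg
CDK6 intron, KYSE-30 library 6: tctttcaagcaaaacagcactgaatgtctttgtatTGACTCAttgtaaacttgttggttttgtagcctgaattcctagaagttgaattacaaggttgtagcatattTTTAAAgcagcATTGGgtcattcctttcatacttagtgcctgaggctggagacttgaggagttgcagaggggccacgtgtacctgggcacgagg

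The other 4 distal regions with peaks in more than 1 library lay at start sites of neighbouring genes. Windows of 100 bp around the summit in KYSE-30 library 6 are shown: chr5:68485327-68485426 on the forward strand downstream of CCNB1, chr6:41888824-41888923 on the reverse strand downstream of CCND3, chr12:58165791-58165890 on the reverse strand upstream of CDK4, and chr7:92219675-92219774 on the reverse strand downstream of CDK6.
CENPH promoter: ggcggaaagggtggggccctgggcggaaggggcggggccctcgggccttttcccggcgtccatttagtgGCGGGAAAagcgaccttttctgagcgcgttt
MED20 promoter: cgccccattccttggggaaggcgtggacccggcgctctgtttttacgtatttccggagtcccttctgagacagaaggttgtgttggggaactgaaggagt
METTL1 promoter: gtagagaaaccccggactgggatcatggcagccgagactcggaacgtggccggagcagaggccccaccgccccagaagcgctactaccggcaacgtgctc
FAM133B promoter: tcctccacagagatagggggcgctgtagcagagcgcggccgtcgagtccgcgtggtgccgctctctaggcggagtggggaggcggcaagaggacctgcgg

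In all, 27 peaks lay in the windows of the 10 genes, 9 of them promoter peaks and 18 distal. They came from 3 libraries only, with 13 peaks in library 2, 2 in library 4 and 12 in library 6. HET-1A library 1 and KYSE-150 libraries 7 and 8 had no peak at any of the 10 genes. Promoter peaks were found for 4 of the 10 genes in library 2 (CCND3, CCNB1, CDK4 and CDKN1A), for 4 in library 6 (CCNE2, CCNA2, CCNB1 and CDK4) and for 1 in library 4 (CCNB1). The background share of all protein-coding genes with a promoter peak was 35.3% in library 2, 28.6% in library 6 and 3.87% in library 4. The members reached 40% in each of the longest lists (Wilson 95% interval 16.8 to 68.7%) and 10% in KYSE-30 library 4 (1.79 to 40.4%). The background shares lie inside these intervals, which are wide with 10 chosen genes. No set test was run. In the libraries without a peak at these genes the background was 0.0942% in library 1, 1.79% in library 7 and 0.362% in library 8, so that 0 of 10 genes was the likely count there and says nothing about accessibility in KYSE-150. The interval for 0 of 10 reaches 27.8%. These intervals cover counting error only.

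**Figure D1:**
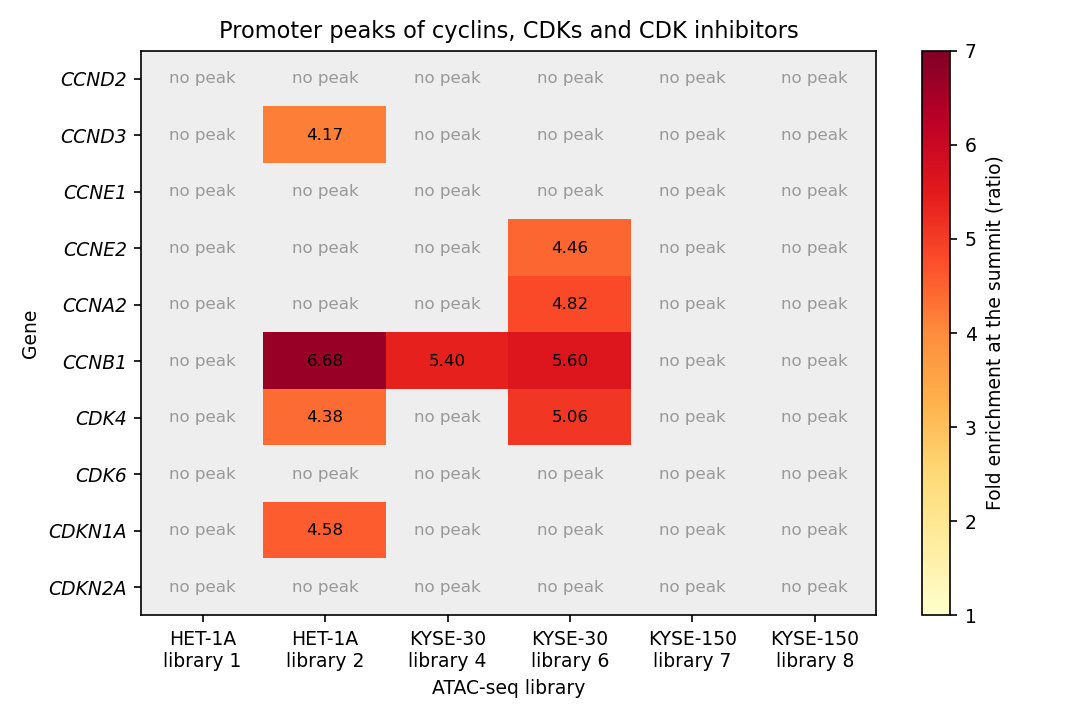
Fold enrichment (ratio, colour and number) of the strongest promoter peak of each of the 10 genes (rows) in each of the 6 libraries (columns), with grey cells where no promoter peak was called. CCNB1 is the only row with 3 values, 6.68, 5.40 and 5.60, and the columns of HET-1A library 1 and of both KYSE-150 libraries are empty.

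A peak anywhere in the gene body or within 20 kb was found for 6 of the 10 genes in HET-1A library 2, against 57.7% of all protein-coding genes. The number was 7 in library 6, against 47.7%, and 2 in library 4, against 8.12%. In the other libraries it was 0, where the background was 0.57% in library 1, 3.66% in library 7 and 1.21% in library 8. CCNE1 and CDKN2A were the 2 genes without any peak in any library.

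**Figure D2:**
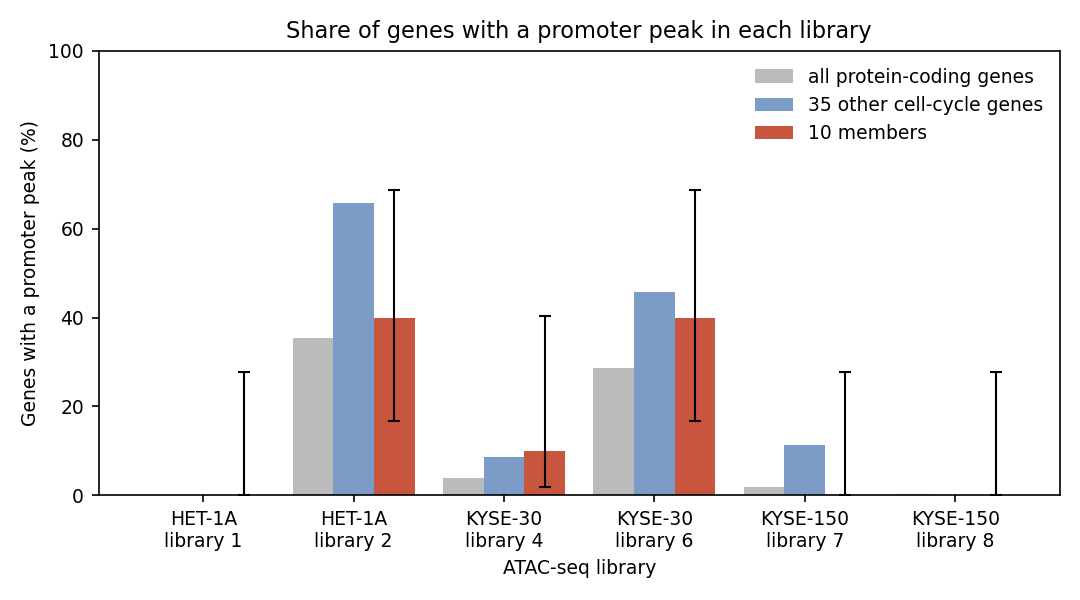
Percent of genes with a promoter peak in each of the 6 libraries for all protein-coding genes (grey), 35 other cell-cycle genes (blue) and the 10 genes described here (red, with Wilson 95% intervals of counting error as bars). The 10 genes reach 40% in HET-1A library 2 and in KYSE-30 library 6, where the grey bars stand at 35.3% and 28.6%.

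Among the G1 cyclins, CCND2 (chromosome 12, 4378937 to 4414519, forward strand) had no promoter peak in any library. Its single peak within the gene body was an intronic one in HET-1A library 2, 14.1 kb downstream of the main start site, with 16 tags at the summit and a fold enrichment of 2.72 (q = 0.0183). Only 6.73% of the peaks of that library had a fold enrichment as low as this. KYSE-30 library 6 had 2 peaks downstream of CCND2, and both lay at start sites of TIGAR, a regulator of sugar metabolism, at 239 and 48 bp from the nearest one. Fold enrichment was 4.95 and 4.35, and their local background was 1.91 and 2.42 times the genome background of the library. No region of the CCND2 window had a peak in both HET-1A library 2 and KYSE-30 library 6. This absence rests on called peaks and was not tested. The HET-1A peak ranked 15951 of the 15979 peaks of its list by p-value, so it was among the weakest calls. The share of windows without a common region was not computed over all genes, so the absence may be usual.

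CCND3 (chromosome 6, 41902672 to 42018095, reverse strand) had a promoter peak in HET-1A library 2 only, with its summit 37 bp upstream of the main start site. The peak had 29 tags against a local background of 6.20 tags, which gave a fold enrichment of 4.17 (q = 2.24e-08) and placed it near the middle of its list, at the 48.4th percentile by fold enrichment. An intronic peak of the same library, 75.4 kb upstream of the main start site, had a fold enrichment of 2.93 and lay 1293 bp from the U6 pseudogene RNU6-761P. The remaining peaks of the window stood at the divergent start sites of MED20, a Mediator subunit, and BYSL, a ribosome assembly factor. There the summits in library 2 and library 6 were 1 bp apart, with fold enrichments of 4.50 and 4.17, and library 2 had a second peak 41 bp from a BYSL start site with 4.31.

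For the E-type cyclins, CCNE1 (chromosome 19, 30302898 to 30315219, forward strand) had no peak in its window, which holds no start site of another protein-coding gene. CCNE2 (chromosome 8, 95891998 to 95908906, reverse strand) had a promoter peak in KYSE-30 library 6 with 19 tags, a fold enrichment of 4.46 and q = 2.95e-06. Its summit lay 548 bp upstream of the main CCNE2 start site and 18 bp from a start site of NDUFAF6, an assembly factor of respiratory complex I, so that the peak cannot be assigned to one of the genes. Its local background was 2.34 times the genome background, a level of at least 2 that 20.4% of the peaks of this library reached.

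The cyclins of S phase and mitosis both had promoter peaks. CCNA2 (chromosome 4, 122737599 to 122745038, reverse strand) had 1 in KYSE-30 library 6, with 11 tags (95% Poisson interval 5.49 to 19.7) at the genome background of 1.49, a fold enrichment of 4.82 and q = 0.000116. The summit lay 190 bp upstream of the only annotated start site. No other peak was found in the CCNA2 window. CCNB1 (chromosome 5, 68462962 to 68474072, forward strand) was the gene with promoter peaks in the most libraries. Its fold enrichment was 6.68 in library 2 with 28 tags (18.6 to 40.5), 5.40 in library 4 with 18 tags (10.7 to 28.4) and 5.60 in library 6 with 14 tags (7.65 to 23.5). The q-values were 9.61e-14, 1.21e-06 and 1.23e-06. The local background was close to the genome background in all of them, at 1.00, 1.07 and 1.13 times. CCNB1 was the only one of the 10 genes with a promoter peak in both libraries of a line, which for KYSE-30 held for 3.12% of all protein-coding genes, for HET-1A for 0.0496% and for KYSE-150 for 0.0545%.

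The 3 CCNB1 summits were up to 159 bp apart and lay 116, 91 and 250 bp upstream of the main start site in library 2, library 4 and library 6. A start site of ENSG00000248664 lay 85, 110 and 49 bp from these summits, nearer than any CCNB1 start site in libraries 2 and 6, so the peaks cannot be assigned to CCNB1 alone. By fold enrichment the peak stood at the 95.7th percentile of library 2 and the 90.8th of library 4, but at the 53rd of library 6, whose folds ran higher in general (median 5.47, against 4.22 and 4.29). A second region 22.4 kb downstream of the CCNB1 start site carried a peak in library 2 (fold enrichment 3.68) and library 6 (6.30), with the summits 9 bp apart. It lay at the start of CENPH, which encodes a kinetochore protein.

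Of the kinases, CDK4 (chromosome 12, 58141510 to 58149796, reverse strand) had a promoter peak in library 2 with 28 tags and a fold enrichment of 4.38 (q = 1.18e-08), and in library 6 with 16 tags and 5.06 (q = 2.05e-06). The summits were 75 bp apart, 81 and 156 bp upstream of the main start site, and the local background was 1.68 and 1.59 times the genome background. The start site of MARCHF9, a ubiquitin ligase, lies within 3 kb of the same peaks. Further upstream both libraries had a peak between the start sites of METTL1, a tRNA methyltransferase, and EEF1AKMT3, a lysine methyltransferase, with fold enrichments of 4.31 in HET-1A and 5.28 in KYSE-30. No peak was found at CDK4 in KYSE-30 library 4.

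CDK6 (chromosome 7, 92234235 to 92465887, reverse strand) is the longest of the 10 genes at 232 kb, and it was the only one with several peaks in its introns and none at its promoter. KYSE-30 library 6 had an intronic peak 95.6 kb downstream of the main start site with a fold enrichment of 6.64 and q = 6.87e-09, at the 75.8th percentile of its list. Another intronic region, 72.8 kb downstream in KYSE-30 library 4 and 72.7 kb in library 6, had fold enrichments of 3.86 (q = 0.0102) and 4.14 (q = 0.00102). By fold enrichment they stood at percentiles 25.9 and 10.2 of their lists, and their summits were 126 bp apart. HET-1A library 2 had neither, but had an intronic peak 191 kb downstream with a fold enrichment of 5.27 (q = 1.92e-09). That peak was 1988 bp from a start site of the gene ENSG00000286742. Downstream of CDK6, the start site of FAM133B carried a peak in library 2 (3.66) and in library 6 (5.97). No intronic CDK6 peak was called in both KYSE-30 and HET-1A, an absence that rests on called peaks and was not tested. How often distal peaks of these lists overlap over all genes was not computed, so the absence may be usual.

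Of the inhibitors, CDKN1A (chromosome 6, 36644237 to 36655114, forward strand) had 2 peaks in HET-1A library 2 and none in any other library. A promoter peak in HET-1A library 2 alone was found for 16.3% of all protein-coding genes. The promoter peak of CDKN1A had its summit 20 bp upstream of the main start site, with 44 tags (32.0 to 59.1), a fold enrichment of 4.58 and q = 7.33e-14. Its summit lay 135 bp from a start site of DINOL, a long non-coding RNA. The distal peak, in an annotated exon 3.95 kb downstream of the main start site, had 39 tags (27.7 to 53.3), a fold enrichment of 3.99 and q = 2.02e-10. The summit counts of these peaks were the highest among the 27 peaks. Their local background was also the highest, at 2.64 and 2.70 times the genome background, and one 10-kb averaging window spans both peaks. Of all peaks of HET-1A library 2, 27.1% had a relative background of at least 2. In KYSE-30 library 6 the lowest fold called at the genome background was 3.62, below both CDKN1A folds of HET-1A, but fold enrichments of different libraries are not on a common scale. CDKN2A (chromosome 9, 21967751 to 21995300, reverse strand) had no peak in any library, and neither had the promoter of its neighbour CDKN2B, which encodes the inhibitor p15. Promoters without a peak in any library, HET-1A included, were those of 53.7% of all protein-coding genes.

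**Figure D3:**
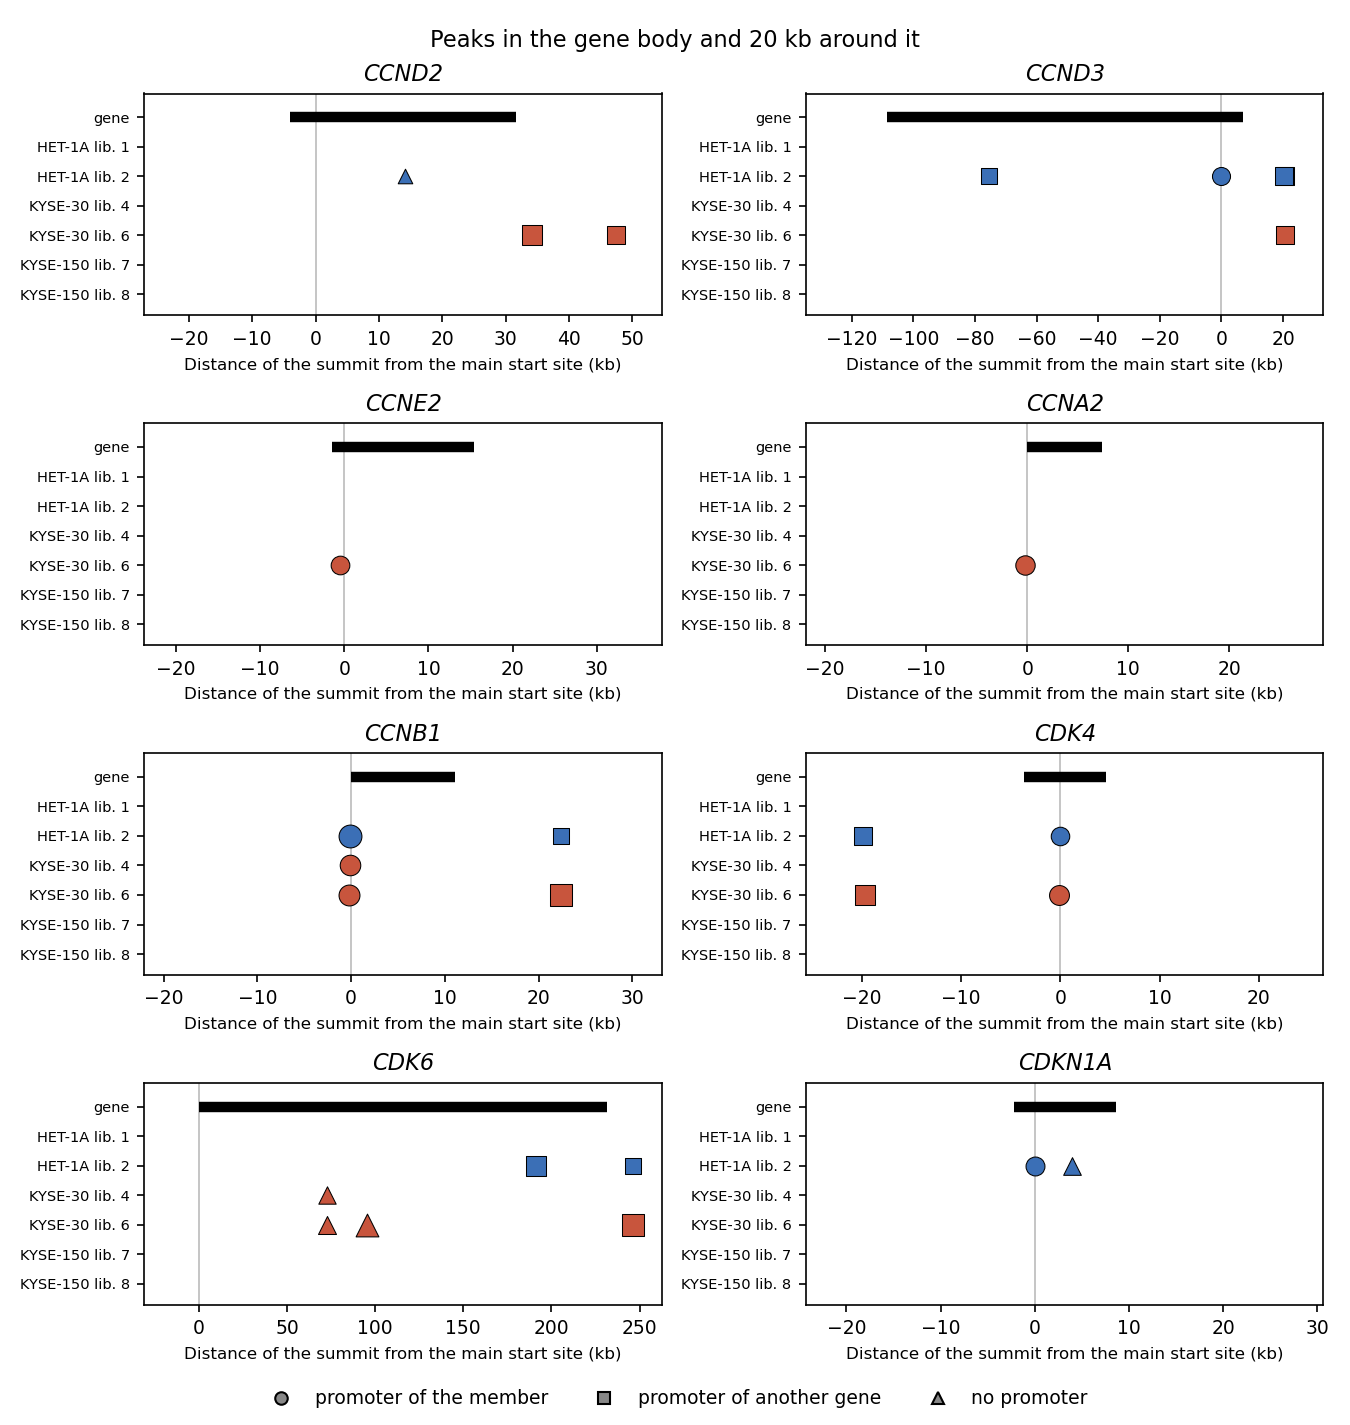
Distance in kb of each peak summit from the main start site of the gene, in the direction of transcription, for the 8 genes with a peak, with 1 row per library (blue HET-1A, red KYSE-30) and the gene body as a black bar. Circles are promoter peaks of the gene, squares peaks at the promoter of another gene and triangles peaks at no promoter, with a larger area for a higher fold enrichment. Triangles are seen only in CCND2, CDK6 and CDKN1A.

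The 27 peaks formed 19 regions when overlapping peaks were merged, 6 at promoters of the genes and 13 distal. Of the distal regions, 9 lay within 3 kb of a start site of another gene and 4 lay at no promoter. Of the 19 regions, 7 had a peak in 2 or more libraries, and CCNB1 was the only one with 3. Of these, 6 are shared between library 2 and library 6: the promoters of CCNB1 and CDK4 and the regions at CENPH, MED20, METTL1 and FAM133B. The share of such regions over all peaks of the libraries was not computed, so it is not known whether these counts are usual. The fold enrichment was higher in library 6 at 4 of these 6 regions and higher in library 2 at 2, CCNB1 and MED20. As a percentile within its own list, however, the fold was higher in KYSE-30 library 6 at only 2 of the 6 regions, CENPH (69.8 against 30.4) and FAM133B (62.7 against 29.3). At the CDK4 promoter the fold was higher in KYSE-30 (5.06 against 4.38) while the percentile was lower (37.4 against 56.0). At the CCNB1 promoter library 2 was higher on both scales. None of these differences was tested. Of the 13 peaks of library 2 at the 10 genes, 4 had a fold below 3.82, the lowest that library 1 called at its genome background, and 2 had a fold below the corresponding 3.62 of library 6. These limits hold at the genome background only. Over all backgrounds, the smallest fold called was 1.99 in library 1 and 2.21 in library 6. Folds of different libraries are not on a common scale, so the counts do not show which peaks another library could have called.

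**Figure D4:**
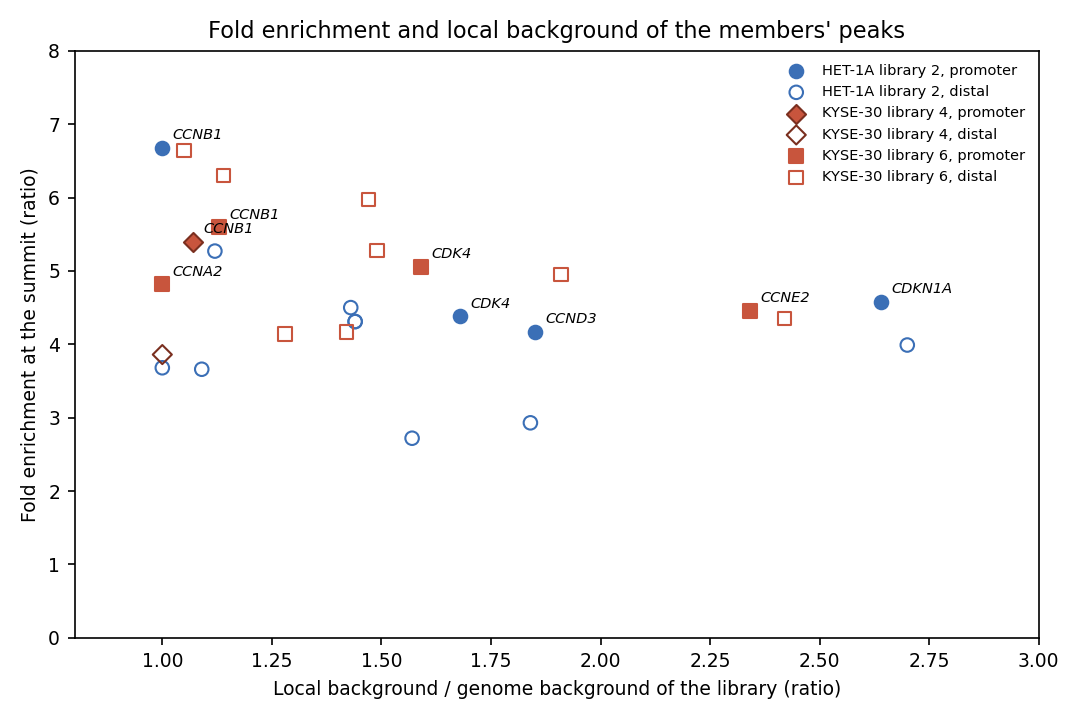
Fold enrichment at the summit (ratio) against the local background divided by the genome background of the library (ratio) for the 27 peaks, with filled symbols for promoter peaks of the named gene and open symbols for distal peaks. The CCNB1 promoter peaks lie at the left, at relative backgrounds of 1.00 to 1.13, and the CDKN1A peaks at the right, at 2.64 and 2.70.

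With respect to sequence, the CCNB1 promoter held 2 CCAAT boxes, 87 and 55 bp before the main start site, and a CHR match 30 bp before it, and all of them fell within 100 bp of the summit in library 2 and in library 4. CCNA2 had a CCAAT box on the opposite strand 56 bp before its start site, CCND3 had one 136 bp before it, and CCNE2 had one on the opposite strand 24 bp before it. A CHR match stood 185 bp before the CCND2 start site and 28 bp before that of CCNE1, both genes without a promoter peak. With CCNB1, 3 of the 10 promoters held a CHR match, against 18.4% of all promoters. In the window from 250 bp before to 50 bp after the main start site, a CCAAT box was present in these 4 genes and in 36.0% of 19894 protein-coding promoters. None of the 10 genes held an exact E2F match in this window, against 4.37% of all promoters, and none held an AP-1 core, against 3.56%. The promoters of CDK4, CDK6, CDKN1A and CDKN2A held none of these motifs. Within 100 bp of the summits, the AP-1 core was present in 2 of the 27 peaks, the CDK6 intronic peaks at 72.8 kb in library 4 and at 95.6 kb in library 6. Of all peaks, 10.4% in library 4 and 26.2% in library 6 held it, as did 21.7% in library 2, where none of the 13 peaks at the 10 genes did. The matches are at chr7:92393061-92393067 and chr7:92370332-92370338. In KYSE-30 library 6, the summit of the peak at 72.7 kb was too far from the first of these for the match to fall into its window. The CENPH region held the only E2F match, at chr5:68485396-68485403. A match describes the letters alone, and no match says only that these letters are not in the window.

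The G+C content of the same promoter window ranged from 61.0% in CCNA2 to 81.0% in CCNE1 (median of all promoters 63.7%). The 4 genes without a promoter peak had 65% (CCND2), 81.0% (CCNE1), 78.0% (CDK6) and 69.0% (CDKN2A). The 6 with one had 61.0 to 75.7%. The ranges overlap, and the highest values belonged to genes without a promoter peak.

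For comparison, 35 other genes of the cell cycle were examined in the same way. Of these, 23 had a promoter peak in library 2 (65.7%), 16 in library 6 (45.7%), 3 in library 4, 4 in library 7 and 0 in library 1 and library 8. No promoter peak in any library was found for 7 of the 35. The partner kinase of cyclin E, CDK2, had promoter peaks with fold enrichments of 5.24 in library 2, 4.65 in library 4 and 7.82 in library 6. SKP2, part of the ubiquitin ligase that removes the inhibitor p27, had 5.60 in library 2, 12.2 in library 6 and 5.24 in library 7. CDC25C, a phosphatase that activates CDK1, had 5.29, 8.87 and 4.18 in the same libraries. Each of the 10 genes described here lacked a peak in KYSE-150 library 7, where SKP2, CDC25C, RBL2 and WEE1 had a promoter peak. In that library 1.79% of all protein-coding genes had one, so that 0 of 10 was the likely count against all genes. Of the 35, 11.4% had one, a share inside the interval for 0 of 10, which reaches 27.8%. The count therefore does not set the 10 genes apart, and no test was run. The median fold enrichment of the strongest promoter peak was 4.48 over the 4 called genes of the 10 and 4.73 over the 23 called others in HET-1A library 2, where it was 4.75 over all genes with a promoter peak. In KYSE-30 library 6 it was 4.94, 6.62 and 5.75. These medians cover only genes with a called peak and are descriptions.

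The pattern of promoter peaks of CCNB1, in HET-1A library 2 and both KYSE-30 libraries alone, was shared by 466 other protein-coding genes, and the pair nearest to it in log2 fold enrichment, summed over the 3 libraries, was SF1 (distance 0.08) and ATP5MC2 (0.11). The pattern of CDK4, in library 2 and library 6, was shared by 2970 genes. The nearest was MARCHF9, which shares the peaks themselves, followed by LETMD1 (0.01). The pattern of CCND3 and CDKN1A, in library 2 alone, held for 3280 protein-coding genes (16.3%). That of CCNE2 and CCNA2, in library 6 alone, held for 1947 (9.65%). CCND2, CCNE1, CDK6 and CDKN2A belonged to the 53.7% of protein-coding genes with no promoter peak in any of the 6 libraries.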

How the data were processed

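ATAC-seq was analysed in 2 libraries each of HET-1A, KYSE-30 and KYSE-150. The authors trimmed reads, marked duplicates (Picard 2.2.1), mapped them to hg19 (Bowtie2 2.3.3.1), removed blacklisted regions, applied the Tn5 shift, and from fragments under 100 bp called peaks with MACS2 (2.1.0.20160309) library by library at q = 0.05, extending tags to 200 bp. The deposited lists hold a score (not used), a fold enrichment, which is the ratio of summit tags plus 1 to background plus 1, and −log10 p-value and q-value columns. Fragments over 100 bp and blacklisted regions are thus not represented.

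Gene bodies, all transcript start sites and the main (canonical) start came from GENCODE 44 on hg19. All 24 peak chromosomes were found in the genome used, with 0 peaks past a chromosome end. A peak counted from 1 bp of overlap. Summit tags and local background were recovered from the fold enrichment and p-value (tolerance 0.001), where MACS2 uses a 10-kb mean as local background unless the genome-wide level exceeds it. The recovery and the promoter assignment were run on simulated peaks. These were built with the formulas that the recovery inverts and placed inside the promoter width, so that they check the code only. In the 2 longest lists no peak number is missing at any of the windows. In the other lists up to 24 numbers are missing between the listed peaks on either side of a window (CCNA2 in library 8; 19 in library 7 and 8 in library 1, and 3 to 5 at CCNE1 or CCNB1 in several lists), and their positions are not known. Missing numbers could not be counted for CCND2, CCNB1 and CDKN2A in library 1 and for CDKN2A in library 4. There the list lacked a peak on at least 1 side of the window. Scripts ran under Python 3.11.15 with matplotlib 3.10.9, pysam 0.24.0, scipy 1.17.1, pandas 2.3.3 and numpy 2.4.6.

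The members, gene lists and motifs were chosen with earlier results of these data known. All 10 members, other cell-cycle genes with promoter peaks in 3 or more libraries, the neighbours nearest to a peak at their promoter, and the nearest genes of the same pattern are named. Further neighbours at these peaks were ENSG00000280187 (at CENPH), ENSG00000288721 (at MED20), and ENSG00000257921, AC025165.1 and CYP27B1 (at METTL1). RBL2, WEE1 and the promoter sequences of CDK4, CCNA2, CCND3 and CDKN1A and the second CDK6 intron were chosen after values were seen. The lines were compared without a test. The alternatives were a stricter q-value, equal list lengths, another promoter width, start sites, overlap or flank, and single libraries. One motif searched is not reported here.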

Additional observations from a re-analysis of the deposited data

How the results depend on the processing

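Of 78 alternative counts, 63 stayed within 1.5 times the reported one and 15 did not. With an equal number of 168 peaks per library, no member had a promoter peak (0 against 4 in library 2 of HET-1A, 1 in library 4 and 4 in library 6 of KYSE-30, and 1 shared by the KYSE-30 libraries) and no distal peak was left (0 against 9, 1 and 8), since fewer peaks enter. With a q-value under 0.01, KYSE-30 library 4 lost its distal peak in CDK6 (0). Windows of 10 kb held 4 distal peaks in library 2 and 3 in library 6, and windows of 50 kb held 14 in library 6. When a peak in either library was enough, 4 members had a promoter peak in HET-1A and 4 in KYSE-30, against 35.4% and 29.4% of all protein-coding genes. With 1 library of a line left out, the count was 0 to 4 in HET-1A, 1 to 4 in KYSE-30 and 0 to 0 in KYSE-150: it was 4 without HET-1A library 1 and 4 without KYSE-30 library 4. Start sites of protein-coding transcripts only, a promoter of 1 kb and a larger overlap required gave the same genes with a promoter peak. No paired analysis was possible because the lines share no library number. Peaks of KYSE-150 and HET-1A library 1 are too few to show the accessibility of single genes.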

Other observations

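Over all protein-coding genes, the share of promoters with a peak varied with their G+C content. In HET-1A library 2 it was 15.8% of promoters under 55% G+C, 41.3% from 55 to 65%, 46.0% from 65 to 75% and 36.6% at 75% and above. In KYSE-30 library 6 the shares were 16.1%, 37.4%, 35.5% and 20.2%. Of the 10 genes, CCNE1 and CDK6 (no promoter peak) and CCNE2 (a promoter peak in KYSE-30 library 6) lay at 75% and above, a class that holds 14.5% of all promoters. The part of G+C content in the missing peaks of CCNE1 and CDK6 was not tested.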
